A study of Mus musculus with 2 samples.

Results

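The genes described are the 9 miRNA genes of the clusters miR-106b-25 and miR-106a-363, the paralogs of the miR-17-92 cluster, among 1973 annotated miRNA genes in the mouse fetal liver at embryonic day 15.5. They were chosen by name and position: Mir25, Mir93 and Mir106b lie together in the gene Mcm7 on chromosome 5, and Mir106a, Mir18b, Mir20b, Mir19b-2, Mir92-2 and Mir363 lie together on the X chromosome. The study made 1 group of 2 microRNA sequencing libraries from total RNA, with RNA of under 30 nucleotides selected per the labels. Replicate 1 came from a pool of livers of 78 healthy embryos and replicate 2 from a pool of 62, each of both sexes and of the mouse strain B6NCrl, with no treatment or transgene named. With 1 group there was no contrast between conditions, and the spread between the libraries is that of pools and library making, not of single embryos.

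A miRNA precursor is cut from its transcript as a hairpin and then trimmed to short mature arms, and a mature arm represses messenger RNAs that pair with its seed, bases 2 to 8. The miR-17-92 cluster and its paralogs arose by duplication and carry miRNAs of 4 seed families, named miR-17, miR-18, miR-19 and miR-25/92. These miRNAs favour proliferation and survival, with repressed targets such as the cell cycle inhibitor Cdkn1a and the pro-apoptotic gene Bcl2l11. In mice, loss of miR-17-92 is lethal around birth, loss of either paralog alone leaves no obvious defect, and combined loss of miR-106b-25 and miR-17-92 is lethal earlier in gestation. Mcm7, the host of miR-106b-25, encodes a subunit of the helicase that opens replication origins.

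The mature arms that define the families are printed because they decide both which targets a member shares with miR-17-92 and whether its reads can be told from those of another locus. All 9 genes matched the RefSeq miRNA table of build GRCm38.p6, which lists 17 mature arms for them. The seed is in capitals. The 4 members with the seed of the miR-17 family follow, all from the 5′ arm of the precursor, before Mir17 and Mir20a of miR-17-92.
mmu-miR-93-5p: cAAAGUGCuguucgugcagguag
mmu-miR-106b-5p: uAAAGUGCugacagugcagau
mmu-miR-106a-5p: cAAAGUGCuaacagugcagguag
mmu-miR-20b-5p: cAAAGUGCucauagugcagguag
mmu-miR-17-5p: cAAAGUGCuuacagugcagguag
mmu-miR-20a-5p: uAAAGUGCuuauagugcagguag

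The arm of Mir106a differs from that of Mir17 by a single substitution, U10A, with positions counted from 1 at the 5′ end and the base of the miR-17-92 miRNA first. Those of Mir20b and Mir20a differ at U1C and U10C. The arm of Mir93 differs from that of Mir17 at U10G, A11U, C12U and A13C. For Mir106b against Mir20a the substitutions over 21 bases were U10G, U12C and G20A. All of these lie outside the seed, bases 2 to 8.

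In the miR-18 family, Mir18b of the X chromosome stands beside Mir18, the miR-18a gene of miR-17-92. Their arms differ at A18U and A20U.
mmu-miR-18b-5p: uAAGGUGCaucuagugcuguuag
mmu-miR-18a-5p: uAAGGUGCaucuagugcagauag

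In the remaining families the seed lies on the 3′ arm for these genes. In the miR-25/92 family, Mir25 and Mir363 have arms of their own, whereas Mir92-2 and Mir92-1 have the identical arm miR-92a-3p. In the miR-19 family Mir19b-2 and Mir19b-1 likewise have the identical arm miR-19b-3p. The arm of Mir19a differs from it at U11C, the base of miR-19a first. Arms were looked up only in the listed miRNA precursors, so an arm called at 1 locus here lies in 1 such precursor.
mmu-miR-25-3p: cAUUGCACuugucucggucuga
mmu-miR-363-3p: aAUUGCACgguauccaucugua
mmu-miR-92a-3p: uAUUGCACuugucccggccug
mmu-miR-19b-3p: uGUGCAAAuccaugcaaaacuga
mmu-miR-19a-3p: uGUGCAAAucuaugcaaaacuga

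Reads placed at several loci were kept out of the deposited gene counts, so the windows around the identical arms are shown to mark where a read can first be told apart. Lower case is the run that both precursors share, and capitals are the bases beyond it. For miR-92a-3p the shared run is 22 bases, and the base after the annotated 3′ end already differs. For miR-19b-3p it is 25 bases. A read that lies within the shared run fits both loci, so the counts of Mir92-2 and Mir19b-2, and of Mir92-1 and Mir19b-1, come from reads that reach beyond it, carry another base or stem from the other arm. Their levels are therefore uncertain.
Mir92-2: AAAguauugcacuugucccggccugAGG
Mir92-1: AUGguauugcacuugucccggccugUUG
Mir19b-2: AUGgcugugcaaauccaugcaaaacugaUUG
Mir19b-1: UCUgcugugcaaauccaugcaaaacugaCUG

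Levels are given as CPM, counts on the gene's own strand per 1000000 such miRNA counts. Whether library making recovered different miRNAs equally well was not tested, so levels of different genes compare counts, not molecules. The libraries held 5529166 sense counts in replicate 1 and 3169882 in replicate 2. A gene with no count could still stand for as many as 3 counts, which is 0.543 CPM in replicate 1 and 0.946 in replicate 2. The tissue label was checked against cell type markers. The liver miRNA Mir122 stood at 182337 and 168741 CPM and the endothelial Mir126a at 44812 and 43586 CPM, while 4 of 5 neural markers in the tables were at 0. The 3 leukocyte markers in the tables, led by Mir223, summed to 19590 and 18330 CPM, the 2 skeletal muscle markers to 1439 and 2653 CPM and the 2 X-linked germline markers to 1.45 and 4.73 CPM in replicates 1 and 2. In bulk tissue, a miRNA carried by fewer cells and a miRNA with less RNA per cell cannot be told apart. A read spans a whole small RNA, so counts were not divided by precursor length for the levels below. The order of the 9 genes was the same when they were.

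All 9 genes were detected, with at least 10 sense counts in both libraries, as were 352 of the 1973 genes. The levels of the 9 spanned more than 3 orders of magnitude, and they separated by cluster: the lowest gene in Mcm7 lay above the highest of the X chromosome in both libraries. None of the 9 had a count on the opposite strand in either library.

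The cluster in Mcm7 spans chr5:138165321-138165818 on the minus strand (GRCm38). In the GENCODE annotation Mir106b lies in an intron of 2 of 2 Mcm7 transcripts that span it. Mir93 and Mir25 are intronic in 2 of 3 and overlap an exon of the other. In the direction of transcription the order is Mir106b, Mir93 and Mir25. Summed, the 3 genes made up 2.35% of sense counts in replicate 1 (exact Clopper-Pearson 95% interval 2.34 to 2.37) and 2.46% in replicate 2 (2.44 to 2.48).

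Mir93 (ENSMUSG00000065527.1, chr5:138165523-138165610) encodes a miR-17 family miRNA that represses Cdkn1a, and was the most abundant of the 9. It had 84105 counts in replicate 1 and 50220 in replicate 2, which is 15211 and 15843 CPM, or 15527 ± 447 CPM (SD, n = 2). It ranked 19 among all miRNA genes by mean CPM. Its level was close to that of Mir20a of miR-17-92, at 1.08 times in replicate 1 and 1.02 times in replicate 2, and 47.6% ± 0.628 of that of Mir17.

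Mir106b (ENSMUSG00000065514.1, chr5:138165737-138165818), of the same family and first in the transcript, had 41821 and 25407 counts in replicates 1 and 2. Its level was 7564 and 8015 CPM, or 7789 ± 319 CPM, rank 34. Mir93 had close to the same multiple of Mir106b in both libraries: 2.01 (exact interval 1.99 to 2.03) for replicate 1, 1.98 (1.95 to 2.01) for replicate 2. The intervals of these ratios are conditional on the summed counts and cover counting error only.

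Mir25 (ENSMUSG00000065394.1, chr5:138165321-138165404), last in the transcript and of the miR-25/92 family, was much lower than its neighbours. Its 4274 counts in replicate 1 and 2333 in replicate 2 gave 773 and 736 CPM, or 754 ± 26.2 CPM, rank 101. Mir93 counts were 19.7 times those of Mir25 in replicate 1 and 21.5 times in replicate 2. Within the cluster Mir93 held 64.6% and 64.4% of counts in replicates 1 and 2. Mir106b held 32.1% and 32.6%, and Mir25 held 3.28% (3.19 to 3.38) and 2.99% (2.87 to 3.11). The make-up of the cluster thus differed little between pools, while the share of Mir25 had intervals that do not overlap. These intervals cover counting error only. In the library comparison below, 38.6% of all genes tested differed beyond that error.

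**Figure D1:**
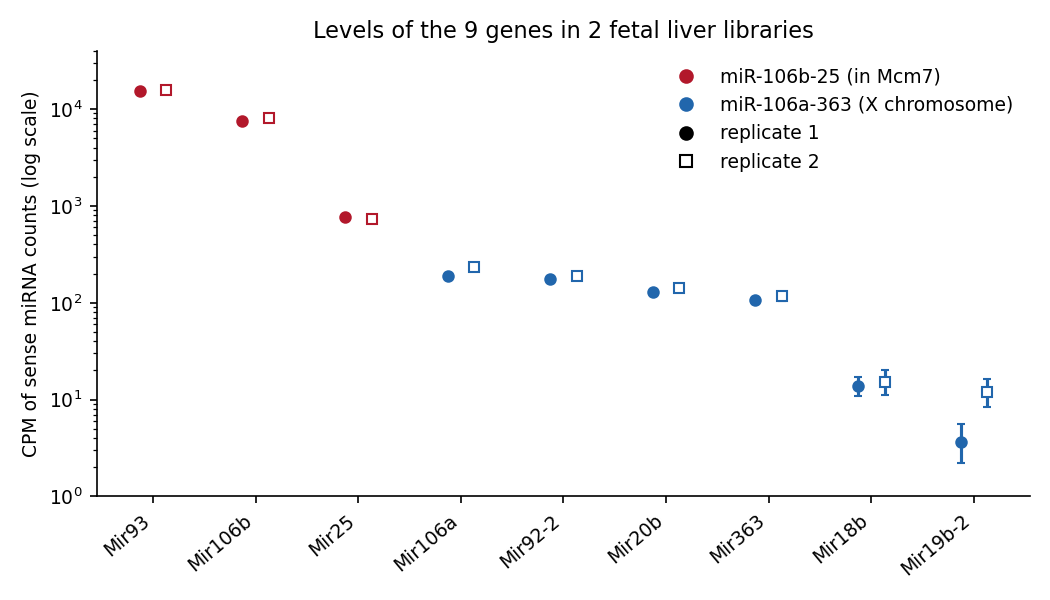
Level of each of the 9 genes in CPM (log scale), with filled circles for replicate 1, open squares for replicate 2 and bars for exact 95% intervals of counting error. The 3 genes in Mcm7 (red) lie at 736 CPM or above in both libraries, and the 6 genes of the X chromosome (blue) at 233 CPM or below. Reads placed at several loci are not counted, which affects Mir92-2 and Mir19b-2.

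The cluster miR-106a-363 spans chrX:52741693-52742567, also on the minus strand, and is transcribed in the order Mir106a, Mir18b, Mir20b, Mir19b-2, Mir92-2 and Mir363. Mir106a overlaps the 3′ end of the noncoding gene Kis2 on the same strand, and no annotated gene overlaps the other 5. Summed, the 6 genes made up 0.0621% of sense counts in replicate 1 (0.0600 to 0.0642) and 0.0707% in replicate 2 (0.0678 to 0.0737).

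Mir106a (ENSMUSG00000065456.1, chrX:52742503-52742567), the miR-17 family gene at the start of the cluster, was its highest member as counted. It had 1056 counts in replicate 1 and 738 in replicate 2, or 191 and 233 CPM, with a mean of 212 ± 29.6 CPM and rank 157. Its counts were 0.604% of those of Mir17 in replicate 1 and 0.693% in replicate 2. The arms of these genes differ by the single base U10A, as printed above, and the part of misread Mir17 reads in the count of Mir106a was not tested. The lead of Mir106a over Mir92-2 was within counting error in replicate 1 (ratio 1.07, 0.984 to 1.17). Mir92-2 counts also leave out reads placed at several loci, so which gene of the cluster is highest cannot be told.

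Mir20b (ENSMUSG00000076041.1, chrX:52742113-52742192), the other miR-17 family gene of the cluster, had 707 and 447 counts in replicates 1 and 2. That is 128 and 141 CPM, or 134 ± 9.30 CPM, rank 177. Its counts were 0.906% of those of its counterpart Mir20a in both libraries.

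Mir18b (ENSMUSG00000077111.2, chrX:52742331-52742413), the miR-18 family gene, lay far below its neighbours on both sides. It had 76 counts in replicate 1 and 48 in replicate 2, or 13.7 and 15.1 CPM, with a mean of 14.4 ± 0.988 CPM. Its counts were 6.85% ± 0.490 of those of Mir106a. In miR-17-92, Mir18 also lay below the first gene of its cluster, at 16.2% ± 0.310 of Mir17. Its mean of 5299 CPM was below that of Mir20a, 14842 CPM, but above that of its direct neighbour Mir19a, 79.4 CPM.

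Mir92-2 (ENSMUSG00000065613.1, chrX:52741838-52741928) and Mir363 (ENSMUSG00000070106.1, chrX:52741693-52741767) are the miR-25/92 family genes at the end of the cluster. Mir92-2 had 983 and 600 counts in replicates 1 and 2, or 178 and 189 CPM, with a mean of 184 ± 8.13 CPM. Mir363 had 589 and 370 counts, or 107 and 117 CPM, with a mean of 112 ± 7.21 CPM. Mir363 has its arm at 1 locus, and Mir20b counts were 1.20 times those of Mir363 (1.07 to 1.34) for replicate 1 and 1.21 times (1.05 to 1.39) for replicate 2. The level of Mir92-2 rests on the part of its reads that could be placed.

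Mir19b-2 (ENSMUSG00000065473.1, chrX:52741983-52742066), the miR-19 family gene, was the lowest of the 9 as counted and the one whose level differed most between the libraries. It had 20 counts in replicate 1, or 3.62 CPM (2.21 to 5.59), and 38 in the shallower replicate 2, or 12.0 CPM (8.48 to 16.5). Mir19b-1 of miR-17-92, with the same arm, was also low, with 88 counts in replicate 1 and 59 in replicate 2. Mir19a, whose arm is at 1 locus, stood at 72.3 and 86.4 CPM in replicates 1 and 2, well under Mir17 in the same transcript. Its arm differs from miR-19b-3p by the single base U11C, and the effect of misread or misplaced reads on its count was not tested.

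Along the order of levels, Mir93, Mir106b, Mir25, Mir106a, Mir92-2, Mir20b, Mir363, Mir18b and Mir19b-2, the order was the same in both libraries. The places of Mir92-2 and Mir19b-2 in it rest on the reads that could be placed. At 2 steps a neighbour did not differ beyond counting error in a library. Mir106a over Mir92-2 was 1.07 (0.984 to 1.17) for replicate 1, against 1.23 (1.10 to 1.37) for replicate 2. Mir18b over Mir19b-2 was 3.80 (2.30 to 6.57) for replicate 1, against 1.26 (0.808 to 1.99) for replicate 2. With 2 libraries no permutation test of these steps can pass a threshold, so none is given.

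**Figure D2:**
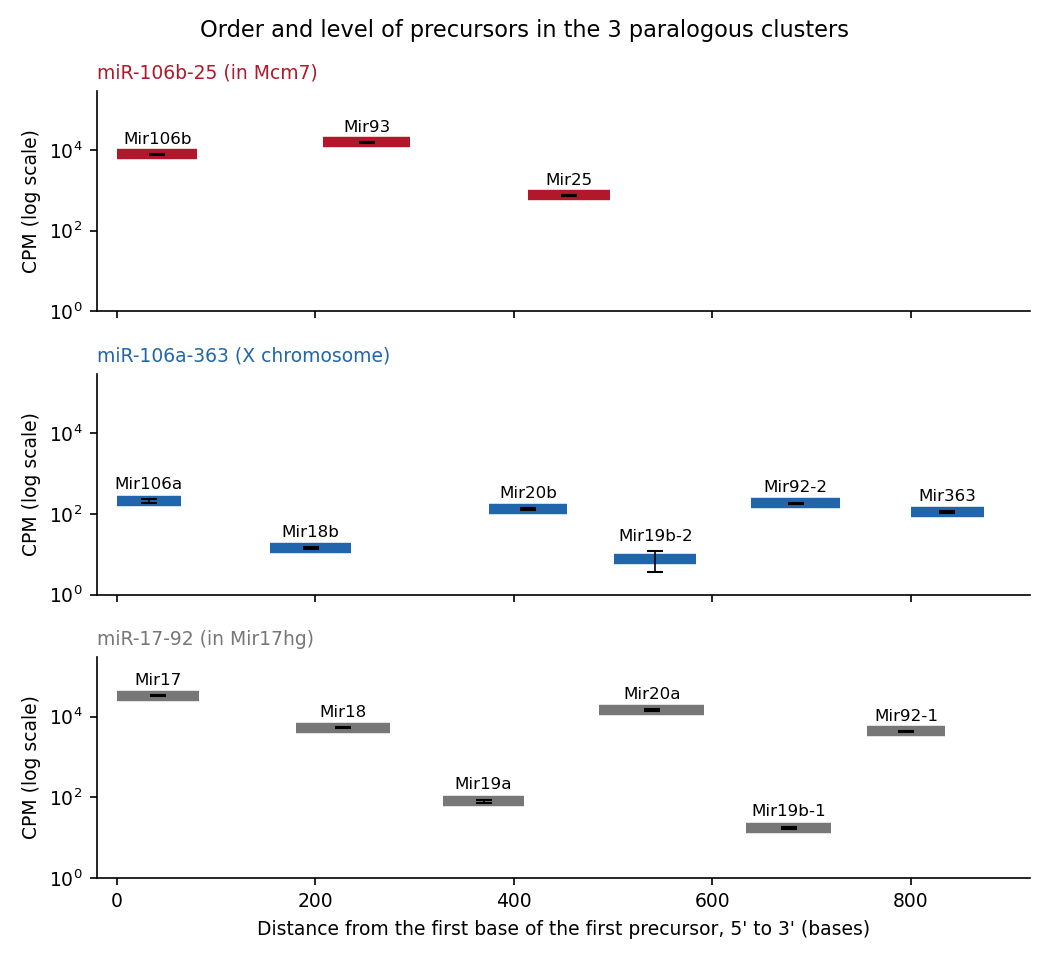
Position of each precursor as its distance in bases from the first base of the cluster's first precursor, in the direction of transcription, against its level in CPM (log scale). Thick lines span the precursors at their mean CPM and black ticks mark the 2 libraries. Mir18b and Mir19b-2 lie under the other 4 genes of miR-106a-363, and Mir19a and Mir19b-1 lie under the other 4 genes of miR-17-92. Reads placed at several loci are not counted.

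The clusters were set against each other within each library, where depth cancels but any unequal recovery of different miRNAs does not. Counts of miR-106b-25 were 37.9 times those of miR-106a-363 in replicate 1 (36.7 to 39.3) and 34.8 times in replicate 2 (33.4 to 36.3). Against miR-17-92, which lies in exons of Mir17hg at chr14:115043671-115044506, miR-106b-25 stood at 42.8% in replicate 1 and 41.5% in replicate 2. The cluster miR-106a-363 stood at 1.13% of miR-17-92 in replicate 1 (ratio 0.0113, interval 0.0109 to 0.0117) and 1.19% in replicate 2 (0.0119, 0.0114 to 0.0124). Without the genes whose arm is at several loci, which leaves out Mir92-2, Mir19b-2, Mir92-1 and Mir19b-1, miR-106a-363 came to 0.00893 times miR-17-92 and miR-106b-25 to 51.1 times miR-106a-363.

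Gene by gene, the miR-106a-363 genes with arms of their own stood lowest against their counterparts. Mir106a stood at 0.648% ± 0.0635 of Mir17. Mir18b stood at 0.271% of Mir18 in replicate 1 (ratio 0.00271, 0.00214 to 0.00339) and 0.274% in replicate 2 (0.00274, 0.00202 to 0.00363). The ratio of Mir20b to Mir20a was 0.00906 (0.00840 to 0.00976) for replicate 1, against 0.00906 (0.00823 to 0.00994) for replicate 2. All of these 3 genes thus stood under 1% of their counterparts in both libraries. Mir92-2 stood at 4.33% of Mir92-1 in replicate 1 (ratio 0.0433, 0.0406 to 0.0461) and 4.27% in replicate 2 (0.0427, 0.0393 to 0.0463). Mir19b-2 stood at 22.7% of Mir19b-1 in replicate 1 and 64.4% in replicate 2. How much of this comes from reads lost as placed at several loci was not tested.

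**Figure D3:**
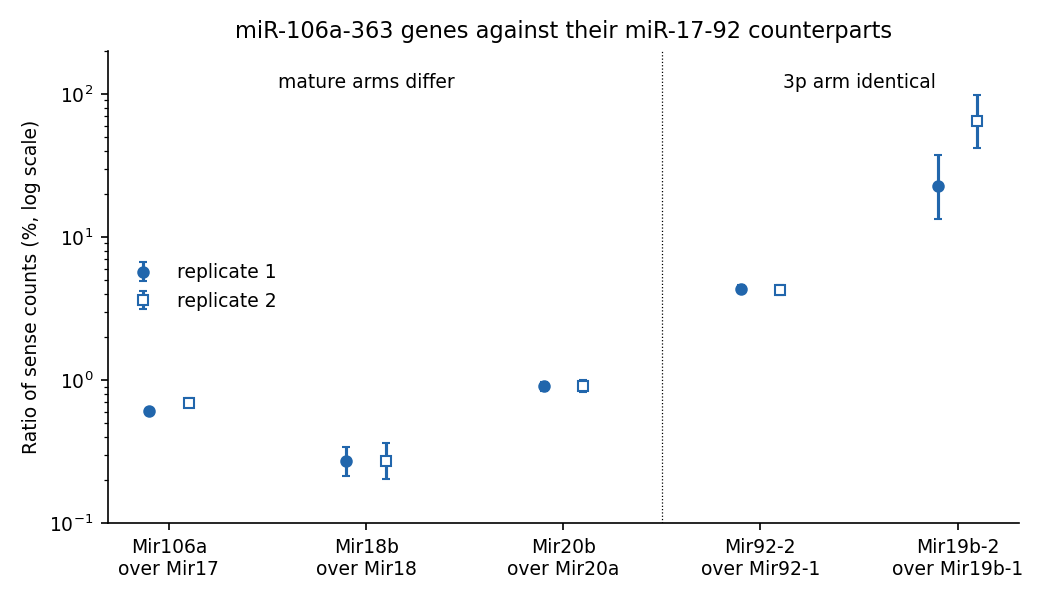
Sense counts of 5 miR-106a-363 genes as a percent of those of their miR-17-92 counterparts (log scale), with circles for replicate 1, squares for replicate 2 and bars for exact 95% intervals. The 3 pairs with mature arms that differ lie at 0.906% or below, and the pairs with an identical 3p arm at 4.27% or above.

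Grouping genes by seed shows how much of each family the 9 genes supply, with the limit that counts are per precursor and include both arms. The miR-17 family, with 7 genes, had the most counts, and its summed level was 68851 and 73379 CPM in replicates 1 and 2. Mir93 and Mir106b held 33.1% of it in replicate 1 (32.9 to 33.2) and 32.5% in replicate 2 (32.3 to 32.7). Mir106a and Mir20b added 0.463% and 0.509%, and the rest was Mir17 and Mir20a. Mir6383, an X-linked gene with the same seed, had 0 counts in both libraries.

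The miR-25/92 family summed to 5476 and 5743 CPM in replicates 1 and 2, of which Mir25 held 14.1% (13.7 to 14.5) and 12.8% (12.3 to 13.3). These intervals do not overlap, but they cover counting error only. Mir92-2 and Mir363 together held 5.19% in replicate 1 and 5.33% in replicate 2. Mir92-1 held most of the rest. Of the other genes with this seed, Mir32 stood at 260 and 245 CPM in replicates 1 and 2, Mir92b at 49.7 and 21.8 CPM, and Mir367 at 0 in both. These shares depend on the reads of miR-92a-3p that could be placed. With Mir92-2 and Mir92-1 left out of the family, the 2 members Mir25 and Mir363 held 75.1% of counts.

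Of the miR-18 family, which summed to 5084 and 5542 CPM in replicates 1 and 2, Mir18b held 0.270% and 0.273%. The summed miR-19 family reached 91.9 and 117 CPM in replicates 1 and 2, and Mir19b-2 held 3.94% (2.42 to 6.02) and 10.2% (7.35 to 13.8) of it. Both this sum and these shares depend on the reads of miR-19b-3p that could be placed. The full level of the family is therefore not known from these counts. Both families have no gene in Mcm7.

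**Figure D4:**
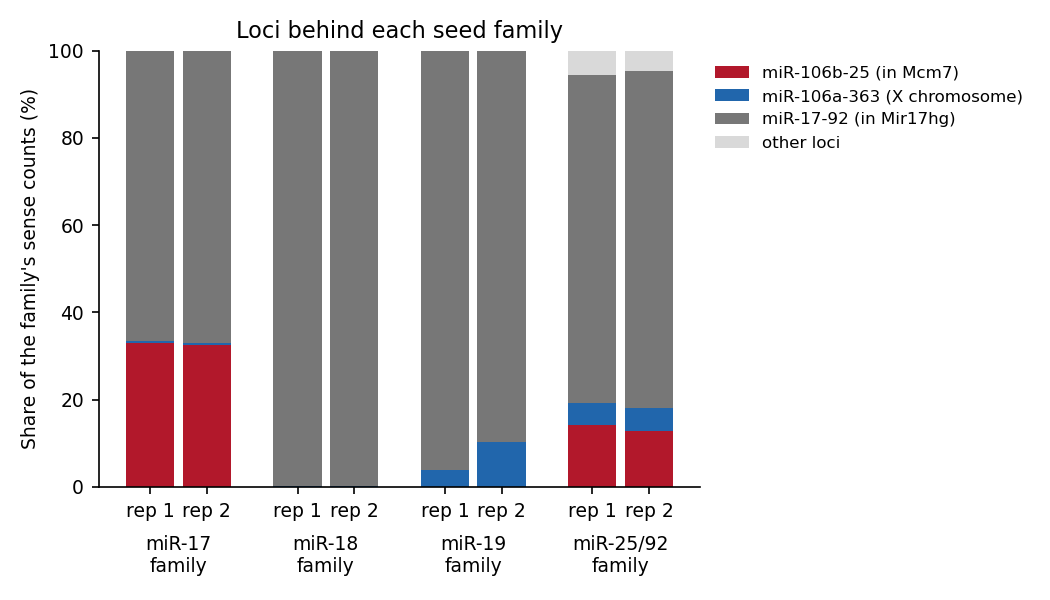
Share of each seed family's sense counts by locus, with a bar for each library, stacked from miR-106b-25 (red) through miR-106a-363 (blue) and miR-17-92 (dark grey) to other loci (light grey). The miR-106b-25 cluster supplies 33.1% and 32.5% of the miR-17 family in replicates 1 and 2, 14.1% and 12.8% of the miR-25/92 family, and none of the other families. Reads placed at several loci are not counted, which limits the shares of the miR-19 and miR-25/92 families.

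The libraries were then compared gene by gene, with log2 ratios of replicate 1 over replicate 2 on TMM-scaled library sizes and a two-sided exact conditional binomial test adjusted over all 456 genes tested by Benjamini-Hochberg. That test covers counting error and compares these libraries, not conditions. Of the 456, 176 passed the threshold of 0.05, or 38.6%, of which 90 were lower in replicate 1 (19.7% of those tested) and 86 higher (18.9%). Among the 9 genes 4 passed, all lower in replicate 1, and 1 more had an unadjusted p under 0.05. The share of the 9 that passed in either direction, 44.4%, is near the 38.6% of all genes. All 4 calls were in the direction in which 19.7% of all genes passed. The share of all genes also moved with the count minimum, from 24.0% with none to 48.9% at 50 counts. For the 9 genes it was 44.4% and 55.6% at those settings.

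The 2 abundant genes passed at very small differences, since their counts are high. Mir93 had a log2 ratio of -0.04 (exact binomial test, adjusted p = 2.73e-07) and Mir106b of -0.07 (adjusted p = 1.04e-08, exact binomial test). Mir25 went the other way, with a log2 ratio of 0.08, and missed the threshold (exact binomial test, adjusted p = 0.0565). With DESeq2 size factors its ratio was 0.09 and it passed (exact binomial test, adjusted p = 0.0377). It also passed when genes needed 50 counts in sum to be tested (exact binomial test, adjusted p = 0.0456), and over the 5 alternatives run its adjusted p lay between 0.0377 and 0.125. These ratios are small beside the scatter of abundant genes: over the 187 genes that averaged 100 CPM or more, the log2 ratios had an SD of 0.20.

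All 6 genes of miR-106a-363 were lower in replicate 1, and 2 of them passed. Over all genes tested, 222 had a log2 ratio below 0 and 232 above 0, and 38.6% passed. Mir106a had a log2 ratio of -0.27 (exact binomial test, adjusted p = 0.000431), somewhat beyond that SD. Mir19b-2 had a log2 ratio of -1.71, or 3.28-fold more in replicate 2 (exact binomial test, adjusted p = 6.90e-05), from 20 and 38 counts. The ratios of Mir18b, Mir20b, Mir92-2 and Mir363 lay between -0.13 and -0.08 and did not pass. The median over the 9 genes was -0.12, against 0.01 over all genes tested.

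The genes of miR-17-92 were also all lower in replicate 1, with 4 of 6 past the threshold and a median log2 ratio of -0.12. Among all genes tested, 19.7% passed as lower in replicate 1. Of the 187 genes that averaged 100 CPM or more, 98 were lower in replicate 1 and 58 passed as lower. Marker levels differed between the pools as well. The 5 hepatocyte markers, none at 0, summed to 187267 CPM in replicate 1 against 173241 in replicate 2. The 5 were each higher in replicate 1. The 3 erythroid markers, none at 0, summed to 27150 CPM in replicate 1 against 18579 in replicate 2, but they did not move together. Mir451a stood at 18658 CPM in replicate 1 and 8843 in replicate 2, whereas Mir144 stood at 7777 and 8918 CPM and Mir486 at 715 and 818 CPM in replicates 1 and 2. The part of these differences in the ratios of the 9 genes was not tested.

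**Figure D5:**
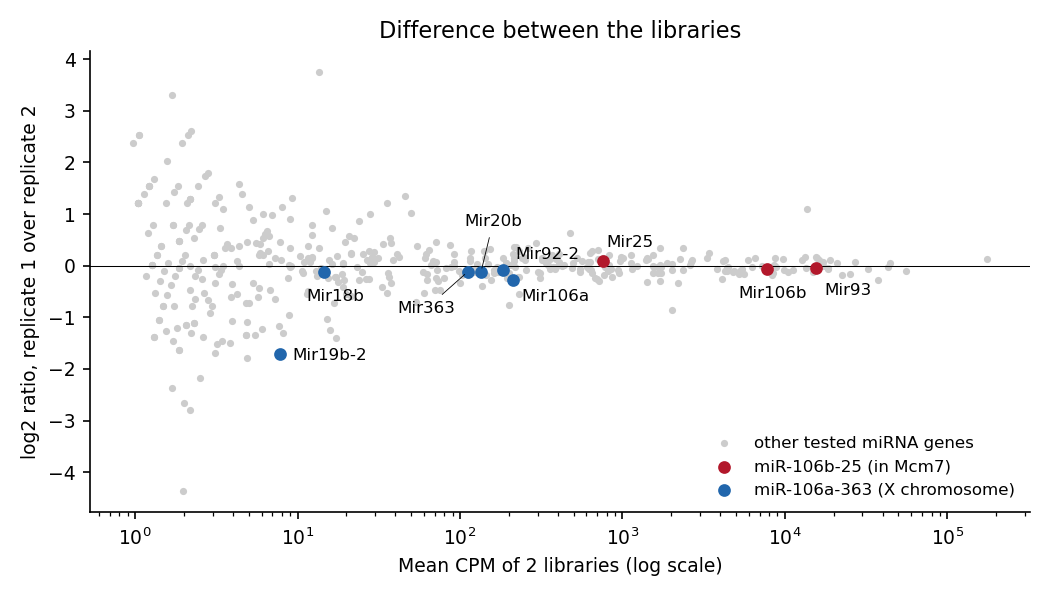
Log2 ratio of replicate 1 over replicate 2 against mean CPM (log scale) for the tested miRNA genes with a count in both libraries, with the 9 genes in red (miR-106b-25) and blue (miR-106a-363). The 9 genes lie between -0.27 and 0.08 except Mir19b-2, at -1.71 and a mean of 7.80 CPM.

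Genes nearest to the 9 in level were found by the larger of the absolute log2 CPM differences over the 2 libraries. For Mir93 they were Mir20a (0.11) and Mir99a (0.11), for Mir106b Mirlet7d (0.15) and Mir144 (0.15), and for Mir25 Mir28a (0.04) and Mir374b (0.10). For Mir106a the nearest was Mir450b (0.13), which is also the next annotated miRNA gene on the X chromosome, 305430 bases upstream of the cluster. Its level was 209 and 245 CPM in replicates 1 and 2. The next were Mir669l for Mir106a, Mir499 and Mir195a for Mir92-2, Mir668 and Mir675 for Mir20b, and Mir574 and Mir30b for Mir363. For Mir18b they were Mir490 and Mir1188. For Mir19b-2 they were the predicted genes Gm24245 and Gm25745, each 0.38 away. The miRNA gene on the other side, Mir717, had 0 counts. The neighbours of the Mcm7 cluster had 0 counts in both libraries (Gm24082) or 3 and 2 counts in replicates 1 and 2 (Mir6418), at distances of 440881 and 635727 bases. Besides Mir20a, the genes nearest in level to the 9 are of other families.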

How the data were processed

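The authors deposited 1 table of raw counts per library, in whole reads for each annotated miRNA precursor, split into sense and antisense. Per the text deposited beside them, counting used mm10 with annotation M4. How reads were trimmed, aligned and counted is not given in the sources used here. Reads placed at several loci, 29.3% of reads in replicate 1 and 31.1% in replicate 2, stand apart and entered no gene count. Unmapped reads (23.9% and 21.4%) and reads that fell in no counted feature (5.40% and 6.23%) were also left out.

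From the sense counts, CPM, shares and ratios were computed, with exact 95% intervals that cover counting error only, since PCR reads without molecular identifiers are not independent molecules. Gene names and positions came from GENCODE M21 (GRCm38), which matched 1894 of 1973 identifiers, all 9 members with the same version. Library sizes were scaled by TMM (edgeR 4.0.16, R 4.3.3), over genes that reached 10 counts in sum; size factors of DESeq2 1.42.0 were the alternative. The exact test ran in scipy 1.17.1 and was tested on simulated data with counting error only. That simulation cannot show how the test behaves with the wider spread of these libraries. An edgeR fit between groups was not made, as there is 1 group. The tables differed by far more than sampling noise (chi-square over genes of 68.6 for each degree of freedom), so they are separate libraries. Members, lists, tests and named genes were chosen with earlier results of these data known. Named genes were the members, miR-17-92, other genes with a member's seed, the 2 nearest in level to each member, genes overlapping a member and the next miRNA genes on each side of a cluster. Alternatives were strand, scaling, count minimum, denominator, precursor length, single-locus genes and single libraries.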

Additional observations from a re-analysis of the deposited data

How the results depend on the processing

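The number of the 9 genes detected, the number that differed between libraries and the number of all genes that differed stayed within 1.5 times their values under every alternative run. The share of all tested genes that differed fell from 38.6% to 24.0% with no count minimum, where 693 genes were tested. All 4 of the 9 genes called were called again under each of the 5 alternatives of the library comparison. Leaving out Mir122 put miR-106b-25 at 2.92% and miR-106a-363 at 0.0805% of sense counts, and counting both strands put miR-106b-25 at 2.19%. With genes at 1 locus only, miR-106b-25 was 51.1 times miR-106a-363 and 0.456 times miR-17-92, miR-106a-363 was 0.00893 times miR-17-92, and the members' share was 0% of the miR-19 family and 75.1% of the miR-25/92 family. These follow from the genes left out, Mir122 and Mir19b-2 among them, and with both strands from the larger denominator. Over single libraries the members' share of the miR-19 family was 3.94% to 10.2%, and the ratio of miR-106b-25 to miR-106a-363 34.8 to 37.9. Mir25 passed the library test with DESeq2 size factors and at a minimum of 50 summed counts, and in none of the other 3 alternatives; the count minimums were applied to single genes after seeing the data. With detection set at 50 counts in both libraries 7 of the 9 genes were detected, without Mir18b and Mir19b-2, whose low counts limit any statement on them. No paired analysis was possible because there is 1 group. The library comparison cannot be made without either replicate.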
